A study of Caenorhabditis elegans with 3 samples.

Results

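Binding of EGL-27 was examined at the chaperone and co-chaperone genes of Caenorhabditis elegans, taken as every protein-coding gene whose symbol begins with hsp-, dnj-, cct- or pfd- in the Ensembl annotation of WBcel235. There were 65 such genes among 19973 protein-coding genes on the nuclear chromosomes. EGL-27, a homologue of the MTA subunits of the NuRD chromatin complex, had its binding sites read out by ChIP-seq, the sequencing of DNA precipitated with the protein, from whole L2 larvae of pooled sex and unstated age. The animals were of strain OP177, genotype unc-119(ed3) III; wgIs177, in which a stably carried transgene expresses EGL-27 with GFP and FLAG at its C-terminus, so the protein mapped is the tagged one. All 3 biological replicates carry the same transgene and form 1 group, so there is no second condition to compare, and no test between samples was possible. The chromatin came from whole animals, so strong binding in few cells and weak binding in many cannot be told apart.

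Chaperones help other proteins to fold and keep them from aggregating. Hsp70 proteins bind unfolded stretches in cycles driven by ATP. J-domain proteins (dnj genes) bring substrates to Hsp70 and start its ATP hydrolysis, and Hsp110 exchanges its nucleotide. Hsp90 acts later, on proteins that are close to their final shape. The ring-shaped CCT chaperonin (cct genes) folds actin and tubulin in the cytosol, and prefoldin (pfd genes) hands it its substrates. Small heat shock proteins hold unfolding proteins without ATP. In worms, heat shock strongly raises the hsp-16 genes and hsp-70 through the transcription factor HSF-1, which reads inverted repeats of the units TTC and GAA, while hsp-1, the cytosolic Hsp70 of unstressed animals, and the chaperonin and prefoldin genes are expressed without stress.

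The authors' final peak set, filtered on agreement between lists by the irreproducible discovery rate (IDR), held 1997 peaks, each with a summit and a signal value that served here to rank peaks. The signal of the set ran from 34.8 to 378 with a median of 50.8. The longer pooled list held 30000 regions, and the lists of replicates 1, 2 and 3 held 13245, 30000 and 30000, with highest signals of 38.0, 169 and 175, so that ranks and not signals are set side by side between replicates. The read depth is unknown. A summit counted for a gene when it fell between -1000 and 200 bp of the annotated 5' end, and 1 summit could count for several genes.

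EGL-27 summits stood in the promoter windows of 20 of 65 chaperone genes (30.8%), while 6.04% of all protein-coding genes had one. The constitutive chaperones, the chaperonin and prefoldin carried them in about every second gene or more, and the small heat shock genes carried none. By class there were 4 of 7 constitutive Hsp60, Hsp70, Hsp90 and Hsp110 genes (57.1%), 4 of 8 chaperonin genes (50%), 4 of 6 prefoldin genes (66.7%) and 8 of 29 J-domain genes (27.6%). None of the 13 small heat shock genes and neither of the 2 stress-induced Hsp70 genes, hsp-4 and hsp-70, had one, a count near the share of all genes. These classes are small, and the differences between them were not tested. They also follow gene symbols and so leave out other genes of these families. Of these, the heat-induced Hsp70 genes F44E5.4 and F44E5.5 shared a promoter peak of signal 101, and the small heat shock gene sip-1 had one of 48.4.

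The share of members with a promoter summit was above that of all genes in each replicate, and the order of the classes varied. Among the 1997 strongest regions of each replicate, as many as there are IDR peaks, 11 members had a promoter summit in replicate 1 (16.9%, against 3.88% of all genes), 17 in replicate 2 (26.2%, against 6.05%) and 19 in replicate 3 (29.2%, against 5.69%). The mean was 24.1% ± 6.41 (SD, n = 3) of members and 5.20% ± 1.16 (SD, n = 3) of all genes. It was 52.4% ± 8.25 for constitutive genes, 41.7% ± 7.22 for chaperonin genes, 33.3% ± 16.7 for prefoldin genes and 23% ± 8.68 for J-domain genes (SD, n = 3 in each). Small heat shock and stress-induced Hsp70 genes stood at 0 in every replicate, but at the share of all genes fewer than 1 summit would fall in 13 genes, so a count of 0 in classes of this size is near the background. Prefoldin varied most, with 1, 2 and 3 of its 6 genes in replicates 1, 2 and 3. When IDR peaks had to be among the strongest regions of both remaining replicates, 14 members kept a promoter summit without replicate 1, 9 without replicate 2 and 10 without replicate 3, where 3.87%, 1.71% and 1.77% of all genes did.

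**Figure D1:**
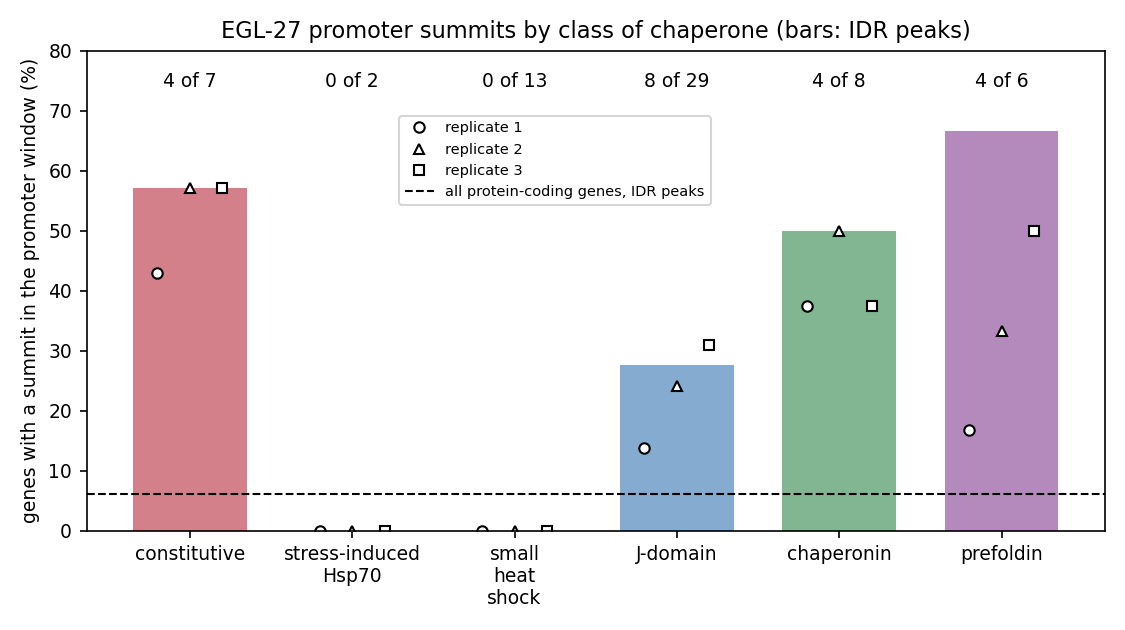
Percentage of the genes of each class, as set by gene symbol, with an EGL-27 summit in the promoter window. Bars give the IDR peaks, open symbols the strongest regions of each replicate and the dashed line the 6.04% of all protein-coding genes; small heat shock and stress-induced Hsp70 genes are at 0 in all of them.

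Among constitutive chaperones the strongest promoter peak belonged to hsp-1, the cytosolic Hsp70 of unstressed animals. It lay at chrIV:17278427-17278638 on ce11, between genes, with a signal of 144 and rank 82 of 1997, and its summit was 396 bp upstream of the 5' end. The strongest region in the hsp-1 window ranked 1616 in replicate 1, 55 in replicate 2 and 117 in replicate 3. It was thus among the strongest in replicates 2 and 3 and weaker in replicate 1. No other protein-coding gene had this summit in its window, and a noncoding RNA gene, F26D10.23, lay within 100 bp of it.

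The mitochondrial chaperonin gene hsp-60 had a peak of signal 111 (rank 168, chrIII:1619050-1619246) at -593 bp. Its region ranked 494, 180 and 185 in replicates 1, 2 and 3. The same summit lay in the window of Y22D7AL.10, the homologue of its partner Hsp10, which is transcribed away from it with a 5' end at -813 bp of hsp-60 and is the nearer of this pair. The divergent pair thus encodes both parts of the mitochondrial chaperonin. At hsp-110, the nucleotide exchange partner of Hsp70, the peak had a signal of 106 (rank 196, chrIII:8447092-8447238) and a summit at -258 bp, with ranks of 109 and 255 in replicates 2 and 3 and no listed region in replicate 1. The nearer 5' end there was that of rpn-3, a subunit of the proteasome cap, on the opposite strand at -444 bp. The endoplasmic reticulum Hsp70 gene hsp-3 had a summit 49 bp upstream of its 5' end (signal 98.8, rank 243, chrX:6092058-6092292) and ranked 267, 259 and 180. It was the most even of these genes across replicates and alone in its window. The sequence within 100 bp of its summit had the highest G+C content of all member promoter peaks, 62.2%, against a median of 42.5% over the members and 43.3% over other genes with a promoter summit.

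The other constitutive genes, hsp-90, hsp-6 and hsp-75, had no IDR summit in the promoter window. In hsp-90, which encodes the cytosolic Hsp90, a peak of signal 138 (rank 90, chrV:14685661-14685865) lay in an intron, 845 bp downstream of the annotated 5' end of the gene. The gene has 2 annotated transcript 5' ends, and the summit was at -397 bp of the one further downstream. It was also in the window of C47E8.4, on the opposite strand, with its 5' end at 567 bp. The peak was among the strongest 1997 regions of all 3 replicates. For hsp-6, the mitochondrial Hsp70, the strongest pooled region in the window had a signal of 32.6 and rank 2220, just below the lowest IDR signal, and ranked 2245, 2775 and 3178 in the replicates, with the summit at 182 bp in replicate 1 and at -428 and -407 bp in replicates 2 and 3. For hsp-75, the mitochondrial Hsp90 homologue, it had a signal of 14.0 and rank 9266.

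Units of the heat shock element, the repeat read by HSF-1, were found at 3 of the 4 constitutive promoter summits, those of hsp-1, hsp-60 and hsp-110, and at the intronic summit of hsp-90. The summit of hsp-3 had neither motif. The windows with units are shown 5' to 3' on the strand of the gene, with 100 bp on each side of the summit, from the RefSeq genome of the same build (WBcel235), and capitals mark each TTCNNGAA or GAANNTTC, both palindromic motifs of a pair of units. The windows are hsp-1 (chrIV:17278463-17278663, plus strand), hsp-60 (chrIII:1619049-1619249, plus strand), hsp-110 (chrIII:8447067-8447267, minus strand) and the intronic peak of hsp-90 (chrV:14685663-14685863, plus strand).
hsp-1: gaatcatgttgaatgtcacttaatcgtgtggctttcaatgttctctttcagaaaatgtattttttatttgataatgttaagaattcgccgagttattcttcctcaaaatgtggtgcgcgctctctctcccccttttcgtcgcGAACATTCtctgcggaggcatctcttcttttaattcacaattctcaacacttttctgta
hsp-60: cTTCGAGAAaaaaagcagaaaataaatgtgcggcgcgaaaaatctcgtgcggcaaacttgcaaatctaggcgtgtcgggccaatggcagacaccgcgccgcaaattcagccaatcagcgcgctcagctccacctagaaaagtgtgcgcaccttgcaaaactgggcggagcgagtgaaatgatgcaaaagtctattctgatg
hsp-110: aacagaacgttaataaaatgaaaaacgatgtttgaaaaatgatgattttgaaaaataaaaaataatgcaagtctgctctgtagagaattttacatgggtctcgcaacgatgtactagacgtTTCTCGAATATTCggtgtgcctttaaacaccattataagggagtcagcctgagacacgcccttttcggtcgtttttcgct
hsp-90: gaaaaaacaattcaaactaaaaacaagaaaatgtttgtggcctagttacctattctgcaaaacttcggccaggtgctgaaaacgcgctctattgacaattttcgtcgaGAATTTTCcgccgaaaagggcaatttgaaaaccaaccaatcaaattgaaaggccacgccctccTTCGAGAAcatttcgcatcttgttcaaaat
In hsp-110 the motifs overlap into 3 alternating units, and in hsp-90 a GAANNTTC stood 11 bp from the summit and a TTCNNGAA 74 bp from it, on the side of the coding sequence. In hsp-60 the 1 motif lay at the far edge of the window, at -95 bp from the summit. It is part of 3 alternating units (chrIII:1619045-1619057) that run past that edge.

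All 4 chaperonin genes with a promoter summit, cct-1, cct-6, cct-7 and cct-8, shared it with a divergent neighbour whose 5' end was nearer. The peak of cct-8 had a signal of 113 (rank 159, chrIV:1094268-1094444, summit at -440 bp) and ranked 391, 168 and 242 in replicates 1, 2 and 3. That of cct-1 had a signal of 111 (rank 170, chrII:8185104-8185288, summit at -239 bp), with ranks of 233 and 128 in replicates 2 and 3. In replicate 1 the strongest region in the cct-1 window ranked 6307 and its summit lay at 8 bp, away from the peak, and no region of that list overlapped the peak. The peak stood between cct-1 and mig-5, a Dishevelled homologue of Wnt signalling, with its 5' end at -420 bp. The peak of cct-7 had a signal of 72.4 (rank 501, chrV:1871774-1872123, summit at -297 bp) and ranked 312, 413 and 817, and that of cct-6 a signal of 45.6 (rank 1210, chrIII:5855808-5856157, summit at -296 bp) and ranked 943, 1200 and 3314. The neighbours were Y55F3AR.2 at -621 bp of cct-8, T10B5.4 at -439 bp of cct-7 and alh-9, an aldehyde dehydrogenase gene, at -331 bp of cct-6. When each summit was given to the nearest 5' end alone, 0 of 8 chaperonin genes kept one.

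The other 4 subunits, cct-2, cct-3, cct-4 and cct-5, had no IDR summit in the window. Their strongest pooled regions had signals of 11.9 for cct-2, 8.0 for cct-4 and 14.6 for cct-5, and cct-3 had none listed. An IDR peak of signal 37.7 (rank 1727, chrIII:4504333-4504682) lay in an intron of cct-5, 3606 bp from its 5' end. The subunits work in 1 ring, and their genes were thus split evenly between promoters with and without a peak.

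Every chaperonin promoter peak had a heat shock unit pair within 100 bp of its summit, against 12.3% of promoter IDR summits of no member. It was a TTCNNGAA in cct-6 and cct-7 and a GAANNTTC in cct-1 and cct-8, at 50 to 86 bp from the summit toward the cct gene. The windows shown are cct-8 (chrIV:1094260-1094460, minus strand), cct-7 (chrV:1871849-1872049, plus strand) and cct-1 (chrII:8185104-8185304, plus strand).
cct-8: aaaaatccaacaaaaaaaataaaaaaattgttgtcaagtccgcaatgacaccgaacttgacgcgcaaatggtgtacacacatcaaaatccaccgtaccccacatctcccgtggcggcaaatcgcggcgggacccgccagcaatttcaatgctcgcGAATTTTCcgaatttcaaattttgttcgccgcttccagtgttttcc
cct-7: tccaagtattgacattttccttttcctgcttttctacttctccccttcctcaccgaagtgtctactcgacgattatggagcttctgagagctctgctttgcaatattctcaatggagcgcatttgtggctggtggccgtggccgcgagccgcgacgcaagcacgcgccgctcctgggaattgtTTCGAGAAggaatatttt
cct-1: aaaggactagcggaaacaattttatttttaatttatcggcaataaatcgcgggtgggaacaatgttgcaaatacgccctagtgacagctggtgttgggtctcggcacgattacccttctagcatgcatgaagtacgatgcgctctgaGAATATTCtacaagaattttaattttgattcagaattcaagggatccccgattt
Over the whole promoter window, TTCNNGAA occurred in all 8 chaperonin genes and GAANNTTC in 7, so the genes without a peak had unit pairs too. None of the 8 chaperonin promoter windows held the 3 alternating units, which 7.68% of the windows of all genes held.

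Prefoldin had a promoter summit in 4 of 6 genes, and the median signal of its peaks was lower than in the other classes with peaks. With the stronger 50% of IDR peaks, or with peaks found in every replicate, 1 of the 6 kept one. The median signal over pfd-1, pfd-3, pfd-5 and pfd-6 was 44.5, against 109 for the constitutive genes, 91.6 for the chaperonin genes and 66.8 for the J-domain genes. The strongest, pfd-1, had a signal of 93.7 (rank 284, chrIV:11149704-11149806, summit at -363 bp) and ranked 755, 696 and 286 in replicates 1, 2 and 3, and its summit was nearer to the divergent F01G4.6 at -609 bp.

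In pfd-5 there were 2 IDR peaks, at -161 bp (signal 43.5, chrIII:7198870-7199219) and -907 bp (signal 38.2, chrIII:7199616-7199965), and no region was listed in its window in replicate 1. The summit at -161 bp had both unit pairs on the side of the gene, at 17 and 41 bp from it, and the one at -907 bp had none. The window of the nearer peak is chrIII:7198945-7199145, minus strand.
pfd-5: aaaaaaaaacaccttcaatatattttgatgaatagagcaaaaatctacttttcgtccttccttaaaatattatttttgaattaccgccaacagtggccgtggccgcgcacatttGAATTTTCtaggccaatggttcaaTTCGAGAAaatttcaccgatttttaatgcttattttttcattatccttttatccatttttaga

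The pfd-6 peak had a signal of 45.5 (rank 1217, chrI:7283648-7283997, summit at -61 bp) and ranked 5097, 2594 and 1556. It was among the 1997 strongest regions of replicate 3 alone. The pfd-3 peak was the weakest of all members, with a signal of 34.8 and rank 1986 (chrI:12727935-12728284, summit at -27 bp), and ranked 2150, 2146 and 2552, outside the strongest 1997 in all 3 replicates. The other prefoldin genes, pfd-2 and pfd-4, had no region in the window in the pooled list or in any replicate. The 5' end of pfd-4 lies 25 bp from the next gene upstream on the same strand.

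Of the 29 J-domain genes, the 8 with a promoter summit were led by dnj-9 and included some known partners of cytosolic Hsp70. The dnj-9 peak had a signal of 134 (rank 100, chrII:4851734-4851911, summit at -242 bp) and ranked 24, 86 and 208 in replicates 1, 2 and 3, the best rank of any member in replicate 1. Among class A and B partners of Hsp70 in the cytosol, dnj-12, dnj-19 and dnj-13 each had a peak. These genes are not a full list of such partners. The 21 J-domain genes without a promoter summit included dnj-24, with a pooled signal of 7.69 (rank 25108). That of dnj-13, which works with Hsp110 in taking aggregates apart, had a signal of 74.9 (rank 467, chrII:11545415-11545534, summit at -219 bp) and ranked 1356, 569 and 434. It lay in an intron of dhgd-1. That of dnj-19 had a signal of 68.9 (rank 546, summit at -373 bp) and ranked 396 and 722 in replicates 2 and 3, with none listed in replicate 1. It lay near the 5' end of nhr-47, a nuclear hormone receptor gene, at -396 bp of dnj-19. The dnj-12 peak was weak (signal 35.5, rank 1910, summit at -113 bp) and ranked 6971, 1331 and 6217.

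The remaining J-domain peaks were those of dnj-14, dnj-11, dnj-28 and dnj-7. The peak of dnj-14, the cysteine string protein of synaptic vesicles, had a signal of 79.2 (rank 414, chrX:4711929-4712278, summit at -356 bp) and ranked 397 and 458 in replicates 2 and 3, with none in replicate 1. That of dnj-11, a zuotin homologue, had a signal of 64.8 (rank 622, chrIV:6585439-6585788, summit at -257 bp) and ranked 424, 891 and 1013. Both summits were nearer to a gene on the opposite strand, glit-1 at -531 bp of dnj-14 and F38A5.2 at -471 bp of dnj-11. The peaks of dnj-28 (signal 37.4, summit at -91 bp) and dnj-7 (signal 35.9, summit at -511 bp), the homologue of the endoplasmic reticulum co-chaperone P58IPK, stood at ranks 1749 and 1877. Among J-domain genes of organelles, dnj-20, an endoplasmic reticulum co-chaperone, had a peak in an intron (signal 51.3, rank 983, chrII:9619518-9619867), 4483 bp from its 5' end and at -523 bp of a second annotated transcript 5' end. No IDR summit was found in the windows of dnj-10, dnj-21, dnj-27 and dnj-29, whose products work in mitochondria or the endoplasmic reticulum.

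The windows of dnj-13 (chrII:11545382-11545582, plus strand), with a GAANNTTC 36 bp from the summit, and of dnj-9 (chrII:4851714-4851914, plus strand), with neither motif, show both kinds of J-domain peak.
dnj-13: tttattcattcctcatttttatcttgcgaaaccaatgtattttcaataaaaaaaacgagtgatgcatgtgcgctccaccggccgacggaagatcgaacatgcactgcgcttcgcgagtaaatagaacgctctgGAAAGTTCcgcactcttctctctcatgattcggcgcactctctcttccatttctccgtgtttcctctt
dnj-9: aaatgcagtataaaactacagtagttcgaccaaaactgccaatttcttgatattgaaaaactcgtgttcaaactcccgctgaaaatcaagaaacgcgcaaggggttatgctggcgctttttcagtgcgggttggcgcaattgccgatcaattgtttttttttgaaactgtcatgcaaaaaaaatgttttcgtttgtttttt
Of the 8 J-domain peaks, 3 had a unit pair (37.5%), in dnj-12, dnj-13 and dnj-19. These are the class A and B genes named above with a peak, and dnj-24, without one, held 3 alternating units in its promoter window.

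The small heat shock genes had no promoter summit in the IDR set. Some pooled region lay in the window of 7 of the 13, while 40.1% of all genes had one. In a class of 13 genes these shares are not far apart. Of the 6 without, 4 are the repeated hsp-16 copies described below. The strongest regions were those of hsp-25 (signal 18.7, rank 5671), then hsp-16.2 and hsp-16.41, which share a region (signal 14.0, rank 9340), and hsp-12.6 (signal 13.8). All lay well below the lowest IDR signal of 34.8. An IDR peak of signal 49.2 (chrIV:9444637-9444986) had its summit in hsp-12.3, in UTR sequence 695 bp from the 5' end and within 100 bp of the small nuclear RNA gene F38E11.11. Of the stress-induced Hsp70 genes, hsp-4, the inducible Hsp70 of the endoplasmic reticulum, had a pooled region of signal 21.1 (rank 4583), and hsp-70 had none.

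The hsp-16 genes form divergent pairs, and 1 locus is a repeat. At the locus of hsp-16.1 and hsp-16.48 on chromosome V the annotation gives both symbols to 2 genes each, and RefSeq calls the second copies hsp-16.11 and hsp-16.49. Between 93.1% and 100% of the 50 bp words in the windows of these 4 genes occur elsewhere in the genome, so reads there have no single place, and no list held a region in them. What part this has in the missing regions was not tested. In the windows of hsp-16.2 and hsp-16.41, 0% of such words are repeated, and these had 1 pooled region and no region in replicates 1 and 3. A second set of 3 alternating units (chrV:1805169-1805181) runs past the end of their shared intergenic sequence. That sequence, given on the strand of hsp-16.41 (chrV:1804958-1805177, plus strand), has the first set in full and the TTCNNGAA of the second.
hsp-16.41: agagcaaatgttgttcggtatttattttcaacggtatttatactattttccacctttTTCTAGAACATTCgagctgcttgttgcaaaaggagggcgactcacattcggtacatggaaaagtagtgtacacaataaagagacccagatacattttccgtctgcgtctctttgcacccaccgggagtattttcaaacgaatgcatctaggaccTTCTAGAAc
The hsp-16 genes were the only 6 of the 13 small heat shock genes with 3 alternating units in the promoter window (46.2%), and constitutive genes had them in 5 of 7 (71.4%): hsp-1, hsp-6, hsp-60, hsp-90 and hsp-110. Windows with these units were thus found both with a peak (hsp-110, at the summit) and without (hsp-16.41).

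**Figure D2:**
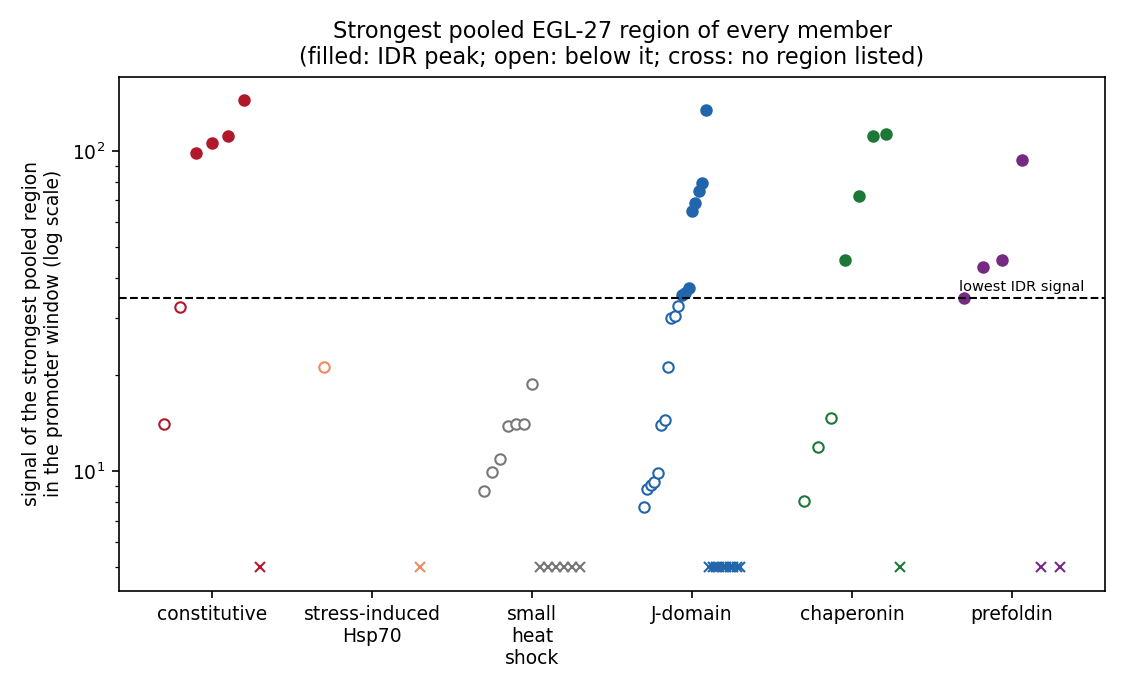
Signal of the strongest pooled region in the promoter window of each of the 65 members, on a log scale, by class. Filled points are IDR peaks, open points lie below the IDR set (dashed line, lowest signal 34.8) and crosses, drawn at the foot with no value, are members with no pooled region; the small heat shock genes reach 18.7 at most.

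Over all members, 44 of 65 had some region of the pooled list in the window, while 40.1% of all protein-coding genes did. The other 21 had none, 10 of them J-domain genes. Just inside the IDR set were pfd-3 (signal 34.8), dnj-12 (35.5) and dnj-7 (35.9), and just outside were dnj-10, a mitochondrial J-domain gene (signal 32.8, pooled rank 2210), hsp-6 (32.6), dnj-29, the Sec63 homologue (30.4, rank 2503), dnj-22 (signal 30.0, rank 2575) and dnj-23 (21.2, rank 4540). In replicate 3 alone, dnj-10, dnj-22 and dnj-29 ranked 1312, 1120 and 1043, within its 1997 strongest regions, and dnj-23 ranked 665 in replicate 1. The step from members with to members without a peak thus passed through several genes within a few units of signal.

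Member peaks were stronger than those of other genes by signal, and similar in position. The median signal was 73.6 (range 34.8 to 144) over the 20 members and 53.3 over 1187 other genes with a promoter summit, and 10 of the 20 members (50%) were among the 499 strongest IDR peaks, against 29.1% of the other genes. Median summit positions were -258 and -249 bp. Taking the strongest promoter peak of each of the 20 members, 10 were found among the strongest 1997 regions of replicate 1 (50%, against 32.3% of peaks of other genes), 16 in replicate 2 (80%, against 80%) and 16 in replicate 3 (80%, against 77.3%). All 3 replicates had 9 of them (45%, against 25.4%): those of hsp-1, hsp-3, hsp-60, cct-7, cct-8, pfd-1, dnj-9, dnj-11 and dnj-13. None of these comparisons was tested, since genes are not replicates.

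**Figure D3:**
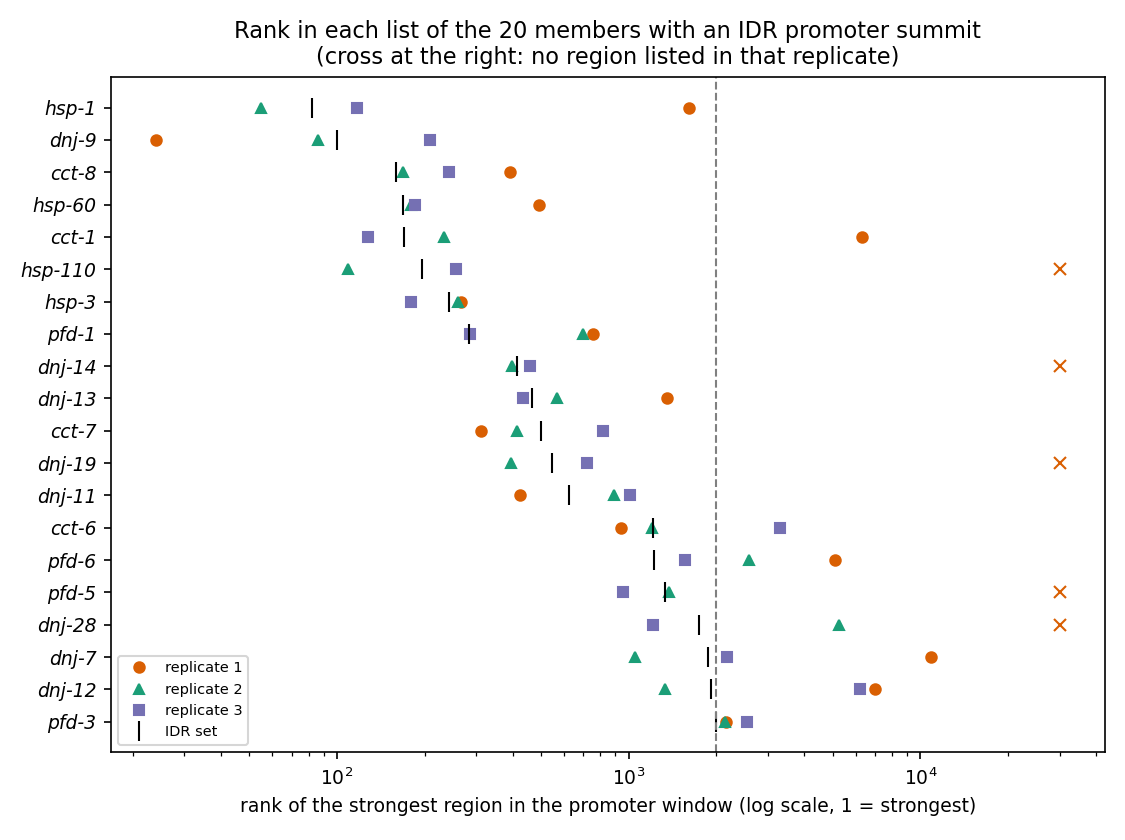
Rank of the strongest region in the promoter window of the 20 members with an IDR summit, in the IDR set (black ticks) and in the list of each replicate, on a log scale where 1 is the strongest. The dashed line marks rank 1997 and crosses mark members with no region in a list. In replicate 1, 5 members, hsp-110, dnj-14, dnj-19, dnj-28 and pfd-5, have none in the window. For cct-1 and dnj-7 the replicate 1 region shown lies elsewhere in the window, at 8 and -56 bp, and none overlaps the peak. For pfd-5 the replicate 2 region shown is at -858 bp.

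Member promoters with a peak were often shared with a divergent gene. The summit also lay in the window of another protein-coding gene for 15 of the 20 (75%), against 47.0% of the other genes with a promoter summit. That gene was on the opposite strand in 13 (65%, against 43.8%) and downstream on the same strand in 2, rde-2 for pfd-6 and exos-9 for pfd-5. The member had the nearest 5' end in 10 of 20 (50%), against 76.0% of other genes. Counted by nearest 5' end alone, 10 of 65 members (15.4%) had a promoter summit, against 4.57% of all genes. These were hsp-1, hsp-3, dnj-7, dnj-9, dnj-12, dnj-13, dnj-28, pfd-3, pfd-5 and pfd-6. No peak was shared by a pair of members. A noncoding RNA gene lay within 100 bp of the summit in 8 of the 20 (40%), and no such share is given for other genes. The next upstream gene was on the same strand within 500 bp in 11 of 45 members without a promoter summit and in 2 of 20 with one. Of those 11, 9 were J-domain genes, and no small heat shock, chaperonin or stress-induced Hsp70 gene was among them.

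**Figure D4:**
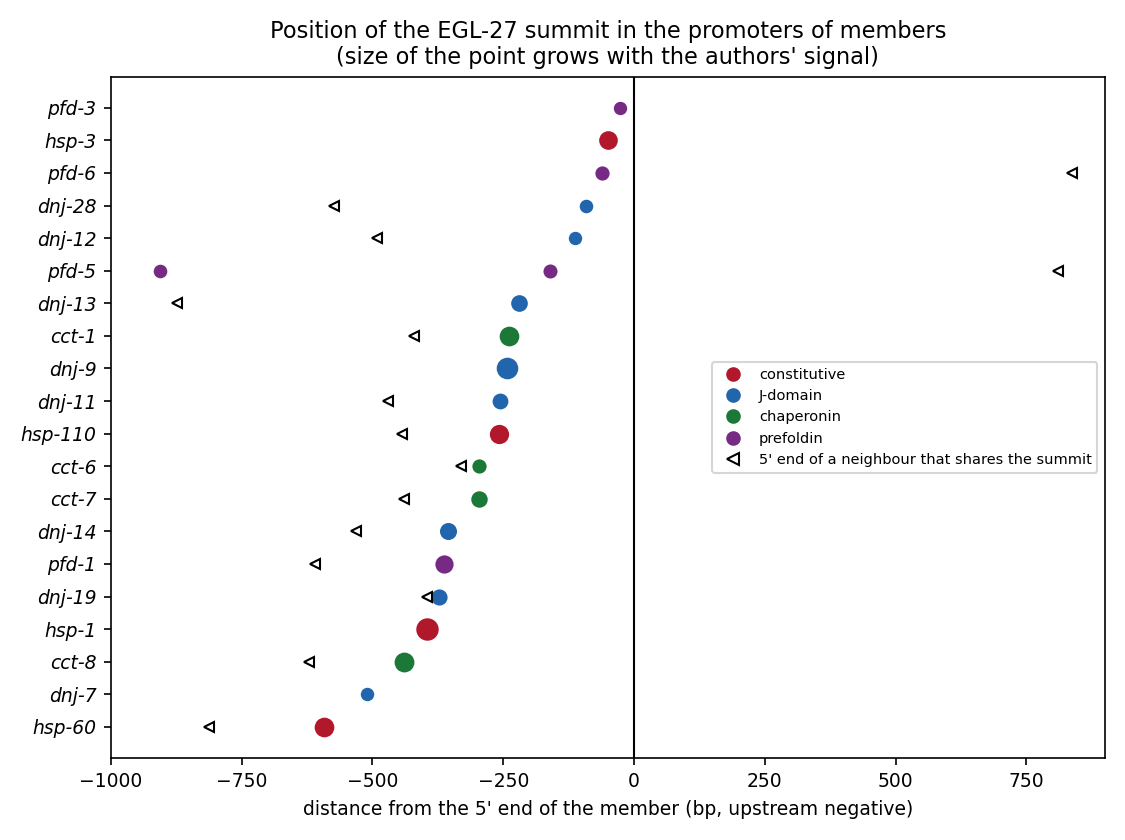
Position of each IDR summit in the promoter windows of the 20 members, in bp from the member's 5' end, coloured by class, with larger points for higher signal. Triangles give the 5' end of any other protein-coding gene with the summit in its window. Most stand upstream, at -331 to -873 bp, on the opposite strand, and those of pfd-6 and pfd-5 downstream.

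Heat shock unit pairs were more frequent at member summits than at other promoter summits. Within 100 bp on each side, TTCNNGAA or GAANNTTC occurred at 13 of 21 member summits (61.9%), against 12.3% of 891 promoter IDR summits of no member and 11.8% of all IDR summits. Both motifs occurred at 3 (14.3%, against 2.13%), in hsp-110, dnj-12 and pfd-5. Of 17 unit pairs, 14 stood on the side of the summit toward the member's gene and 3 on the far side. The 17 came from 13 members, and the overlapping pairs in hsp-110 and dnj-12 were each counted separately. No such split is given for other promoter summits, so there is no level to read it against. Positions ran from -95 to 86 bp of the summit, with a median of 41 bp over all 17. Over the whole promoter window the contrast was smaller, with TTCNNGAA in 70% of members with a summit, 77.8% of members without and 57.9% of all genes, and GAANNTTC in 80%, 66.7% and 57.2%. Both motifs were searched as written, each equal to its reverse complement, and the pair overlap in the 3 alternating units. The GATA site TGATAA, on either strand, was at 14.3% of member summits and 13.9% of all promoter summits. The motif TGACGTG was at 9.52% of member summits, those of dnj-28 and hsp-3, and at 4.17% of all promoter summits. Over the whole window it was in 35% of members with a summit, 8.89% of members without and 9.42% of all genes. A match is a string of letters and no measure of HSF-1 or any other factor, and no test was made.

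In the gene body, more than 200 bp from the 5' end, 4 of 65 members (6.15%) had an IDR summit, against 2.13% of all genes. They were hsp-90, hsp-12.3, dnj-20 and cct-5, each described above, and with the 20 promoters they bring the members with any IDR summit to 24.

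Of other chaperones and folding factors, 43.6% of a list of 39 had a promoter summit, against 6.04% of all genes. The list was picked by hand with earlier results of these data known, so its share does not stand for folding factors in general. Of the 39, which include co-chaperones of Hsp90 and Hsp70, endoplasmic reticulum folding enzymes and regulators of the stress responses, 17 had one and clpp-1 had a summit in the gene body. Co-chaperones of Hsp70 and Hsp90 with a peak were bag-1 (signal 96.1, summit at -176 bp), sti-1 (68.4, at -72 bp), unc-23 (64.0, at -36 bp), ahsa-1 (52.3, at -216 bp) and fkb-6 (42.9, at -455 bp). In the endoplasmic reticulum they were enpl-1, the Hsp90 of that compartment (84.2, at -64 bp), the calreticulin gene crt-1 (70.2, at -334 bp) and the disulfide isomerase genes pdi-2 (67.3, at -30 bp), pdi-3 (93.2, at -645 bp) and pdi-6 (59.3, at 9 bp). Regulators with a peak were xbp-1 (96.6, at -18 bp) and atf-6 (46.2, at -261 bp) of the endoplasmic reticulum response and atfs-1 (44.0, at -51 bp) of the mitochondrial one, and hsf-1, ire-1 and pek-1 had none. The summits of ahsa-1, fkb-6 and pdi-3 were nearer to the 5' end of another gene. Listed co-chaperones without a promoter summit included cdc-37, daf-41, chn-1, hip-1, sgt-1, pph-5 and unc-45. Both cnx-1 and pdi-1 were among the endoplasmic reticulum genes with none. The divergent, heat-induced Hsp70 genes F44E5.4 and F44E5.5 shared a peak (signal 101, at -167 and -184 bp), unlike hsp-70. A small heat shock gene outside the naming scheme, sip-1, had one of signal 48.4 at -284 bp that was nearer to sly-1. The gene Y22D7AL.10 completes the 17, with the peak it shares with hsp-60.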

How the data were processed

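Peak lists of EGL-27 ChIP-seq from whole L2 larvae were used in 3 biological replicates of 1 group. The authors called regions, peaks and background alike, from each replicate and from all 3 pooled, both with a control, and derived an IDR set from these lists, per the deposited notes. Aligner, caller and threshold: not given in the sources used here. Per the deposited files, each region has a signal value of unnamed scale, a −log10 q-value, deposited by the authors and not used to rank, and a summit offset in bp. No counts are held, so depth is unknown and no interval is given. Lists on ce11 were used, and those on ce10 were not.

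Summits were placed on Ensembl release 115 genes with Python 3.11.15, pandas 2.3.3 and numpy 2.4.6. Placement was tested on simulated summits. Genes on mitochondrial DNA (12) were left out. A replicate counted as having a peak if its 1997 strongest regions overlapped it by 1 bp or more. Replicate regions named for a member are the strongest with a summit in its window. Classes follow symbols: constitutive genes are hsp-1, hsp-3, hsp-6, hsp-60, hsp-75, hsp-90 and hsp-110. Named are all members with an IDR peak, all constitutive and hsp-16 genes, the 5 members closest below the threshold and the bound genes of the list of other factors; further members without a peak were named after their values were seen. Members, classes, lists and motifs were chosen with earlier results of these data known. Alternatives covered the window, the assignment, the threshold and replicate agreement.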

Additional observations from a re-analysis of the deposited data

How the results depend on the processing

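No paired analysis was possible because all samples form 1 group. The share of members stayed above that of all genes in all 12 alternatives. Small heat shock and stress-induced Hsp70 genes had 0 promoter summits also in the 4 that could have added some (2000 bp, all transcripts, peak intervals and pooled regions); the others only narrow the window, the assignment or the peaks, so a 0 was fixed there. With promoters of 500 or 2000 bp upstream, the 5' ends of all transcripts or peak intervals, the count of members was 18 to 22 and each class was within 1.5 times its count. With the nearest 5' end only, members fell from 20 to 10 (constitutive 2, J-domain 5, chaperonin 0). With the stronger 50% of IDR peaks there were 13 (J-domain 5, prefoldin 1, gene body 2), against 3.28% of all genes. With the strongest 3994 pooled regions gene-body members rose to 7 and all genes to 10.8%, and 24 members had a promoter summit. With peaks found in every replicate there were 9 (J-domain 3, chaperonin 2, prefoldin 1, gene body 2), against 1.58% of all genes. With an overlap of 50% these were 9, 3, 2 and 1, with gene body 1 and 1.42% of all genes. Keeping peaks shared by both remaining replicates, which also lowers the number of peaks, there were 14 members without replicate 1, 9 without replicate 2 and, leaving out replicate 3, 10 (range 9 to 14), constitutive 3 to 4, J-domain 3 to 5, chaperonin 2 to 3, prefoldin 1 to 2, gene body 2 to 3, and all genes 1.71% to 3.87%. Fewer peaks lower every count by construction. The cause of the difference between replicates was not tested.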

Other observations

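The repeat GAGAGA, searched on both strands after the other motifs and with the data known, was within 100 bp of 19.0% of the 21 member promoter summits, 41.2% of all promoter summits and 49.3% of all IDR summits. In the promoter windows of all 65 members it was found in 64.6%, and in 50.9% of those of all genes. Members were spread over all chromosomes, and those with a promoter summit numbered 4 of 11 on I (7.19% of all genes there), 3 of 12 on II (5.36%), 4 of 12 on III (8.26%), 4 of 11 on IV (5.64%), 2 of 14 on V (4.59%) and 3 of 5 on X (6.7%).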
